A study of Homo sapiens with 8 samples.

Results

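The genes described here are 8 that control aldosterone output: the angiotensin II receptor AGTR1, the potassium channels KCNJ5, KCNK2, KCNK3 and KCNK9, the chloride channel CLCN2, and the calcium channels CACNA1D and CACNA1H. Their accessible sites were chosen by position. A peak was counted for a gene when its summit lay inside the gene, or within 100 kb of the gene with no other of 19974 protein-coding genes nearer. This gave 29 of 41086 peaks in the EZH2i list, 38 of 47161 in the CBPi list, 39 of 51095 in the FSK list and 48 of 61016 in the vehicle list, and the peaks merged into 54 sites over the 4 lists.

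Accessible chromatin was mapped by ATAC-seq, in which the transposase Tn5 inserts sequencing adapters into open DNA, in NCI-H295R, an established line of human adrenocortical carcinoma cells that secretes steroids. The EZH2i cells had 62 µM EPZ-6438, an inhibitor of the histone methyltransferase EZH2, for 96 h. The CBPi cells had 26 µM PRI-724, labelled as an inhibitor of the coactivator CBP, for 96 h. The FSK cells had 10 µM forskolin for 48 h after 48 h in vehicle; forskolin activates adenylyl cyclase and raises cAMP. The vehicle cells had DMSO for 96 h. Both inhibitor doses are labelled IC-50 doses, each group has 2 libraries labelled biological replicates, and all 8 libraries come from 1 tumour line. The files hold 1 peak list per group, so spread between replicates cannot be given and no difference between lists was tested. Read depth is unknown. Peaks near the gene start were present for 9 of 12 adrenocortical marker genes in the EZH2i list, 9 in the CBPi list, 11 in the FSK list and 10 in the vehicle list. Among markers of other cells they were present for 4 of 9 chromaffin, 2 of 7 fibroblast and 1 of 6 endothelial genes in every list, and for 2, 3, 3 and 1 of 6 immune genes in the EZH2i, CBPi, FSK and vehicle lists.

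Aldosterone-producing cells of the adrenal cortex are held at a negative membrane potential by potassium channels. Angiotensin II, acting through AGTR1, closes some of these channels and depolarises the cell, calcium enters through voltage-gated channels, and calcium signalling raises transcription of the aldosterone synthase gene CYP11B2. Mutations of KCNJ5, CACNA1D, CACNA1H and CLCN2 are known from aldosterone-producing adenomas or familial forms of hyperaldosteronism. A peak of accessible chromatin does not measure expression, and no RNA was used here.

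The start regions shown here were picked because the results below turn on them: both starts of KCNK2, of which the FSK list kept 1, and the start of KCNJ5, the member-gene peak of largest area in the vehicle list. Each sequence runs from 250 bases before to 50 bases after a RefSeq start (GRCh38.p14, plus strand). Capitals mark matches to the motifs searched. The windows are chr1:215005292-215005591 for the upstream start of KCNK2, chr1:215082487-215082786 for its internal start and chr11:128891106-128891405 for KCNJ5.
KCNK2 upstream start: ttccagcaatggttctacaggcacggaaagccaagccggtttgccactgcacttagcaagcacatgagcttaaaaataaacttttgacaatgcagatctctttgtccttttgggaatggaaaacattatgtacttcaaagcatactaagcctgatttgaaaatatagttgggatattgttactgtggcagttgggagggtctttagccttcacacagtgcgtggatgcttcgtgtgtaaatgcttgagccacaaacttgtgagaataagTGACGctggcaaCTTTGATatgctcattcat
KCNK2 internal start: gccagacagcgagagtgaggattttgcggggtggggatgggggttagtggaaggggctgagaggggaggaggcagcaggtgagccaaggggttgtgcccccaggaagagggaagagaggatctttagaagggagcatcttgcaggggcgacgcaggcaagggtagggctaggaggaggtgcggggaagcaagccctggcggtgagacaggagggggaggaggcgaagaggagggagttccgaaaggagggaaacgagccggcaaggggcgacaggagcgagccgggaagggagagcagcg
KCNJ5 start: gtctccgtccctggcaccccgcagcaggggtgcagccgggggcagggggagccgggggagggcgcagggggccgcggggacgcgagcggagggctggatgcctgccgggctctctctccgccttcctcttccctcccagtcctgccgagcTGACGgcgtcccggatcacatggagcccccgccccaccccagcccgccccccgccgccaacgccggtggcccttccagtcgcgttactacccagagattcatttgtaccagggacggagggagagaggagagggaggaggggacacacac

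Of the 8 genes, 5 had a RefSeq start with a window, 6 windows in all. The upstream KCNK2 window stood apart from the other windows in base composition, with 42.0% G and C and 5 CpG pairs, where the other 5 windows had between 64.7% and 83.0%. The median over 35116 RefSeq windows was 58.7% G and C and 14 CpG pairs. The motifs searched on both strands were the cAMP response element TGACGTCA, its short form TGACG (which the full element contains), the SF1 motif CAAGGTCA, the NR4A motif AAAGGTCA, the TCF/LEF motif CTTTGAT and the AP-1 motif TGANTCA. The short form TGACG matched in the upstream KCNK2 window, 20 bases after the start, and in the KCNJ5 window, 100 bases before the start. CTTTGAT matched in the upstream KCNK2 window, 32 bases after the start. TGACG is common, in 24.6% of all windows, and CTTTGAT was in 2.62%. No member window held the full response element (1.85% of all windows), the SF1 motif (1.28%), the NR4A motif (1.22%) or the AP-1 motif (7.71%). These are matches of letters only.

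KCNJ5, on chromosome 11 from 128891356 to 128921163, encodes GIRK4, an inwardly rectifying potassium channel that helps set the resting potential. Its start lay in a broad peak in every list, 2146 bp wide in the EZH2i list, 2214 bp in the CBPi list, 2151 bp in the FSK list and 2511 bp in the vehicle list. To compare peaks within a list, each is given the share of that list's peaks with a smaller area, the area being the authors' deposited sum of significance under the peak. The lists differ in length, so this share places a peak within its own list and does not measure change; where lists are compared, ranks among the 32083 vehicle peaks present in all lists are used, in points of 100. The KCNJ5 start peak exceeded 95.03% of peaks in the EZH2i list, 96.71% in the CBPi list, 96.66% in the FSK list and 98.45% in the vehicle list. The start was thus in the top 10% of all 4 lists by area, and it was narrower in each treated list than in the vehicle list. Inside the gene, 4 vehicle peaks had no counterpart under any treatment. Of these, 3 lay 1.7, 4.5 and 5.14 kb from the start and exceeded only 9.0%, 1.7% and 7.0% of vehicle peaks. The fourth, at 128920515 to 128920875 near the far end of the gene, exceeded 46.5%. A downstream peak at 128924553 to 128925699 was kept in all lists but was small under CBPi. It exceeded 52.0% of peaks in the EZH2i list, 3.4% in the CBPi list, 64.9% in the FSK list and 76.8% in the vehicle list.

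KCNK3, on chromosome 2 from 26692722 to 26733420, encodes TASK-1, an acid-sensitive leak potassium channel. It held 4 of the 6 vehicle peaks of the 8 genes that were in the top 10% of their list by area. Its start peak was 2546 bp wide in the EZH2i list, 2430 bp in the CBPi list, 2500 bp in the FSK list and 2724 bp in the vehicle list, and exceeded 90.8%, 94.9%, 89.2% and 94.9% of those lists' peaks in that order. Within the gene, the peak 31.95 kb from the start exceeded 94.0% of peaks in the EZH2i list, 97.6% in the CBPi list, 97.1% in the FSK list and 95.8% in the vehicle list. These peaks stayed in the upper part of every list. The intragenic peak at 26696219 to 26696893 differed more between lists, with a rank among shared peaks of 20.2 under EZH2i, 41.9 under CBPi, 62.8 under FSK and 8.4 in vehicle. It exceeded 32.7% of peaks in the EZH2i list, 60.6% in the CBPi list, 76.8% in the FSK list and 38.1% in the vehicle list. Beyond the far end of the gene, the vehicle peak at 26740845 to 26741652 had no counterpart in the CBPi list. Its site exceeded 22.6% of peaks in the EZH2i list, 71.5% in the FSK list and 70.0% in the vehicle list. It was the only vehicle peak of the 8 genes in the larger-area 50% that the CBPi list lacked.

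KCNK2, on chromosome 1 from 215005542 to 215237090, encodes TREK-1, a mechanosensitive and lipid-sensitive leak potassium channel. The upstream start shown above was covered by a peak of 671 bp in the EZH2i list, 1000 bp in the CBPi list and 946 bp in the vehicle list, and by no peak in the FSK list. That peak exceeded 40.5% of peaks in the EZH2i list, 44.9% in the CBPi list and 65.0% in the vehicle list. The internal start was covered in all 4 lists, by a peak that exceeded 76.1% of peaks in the EZH2i list, 74.6% in the CBPi list, 82.6% in the FSK list and 78.1% in the vehicle list. Only the upstream start was therefore absent from the FSK list, and the internal start ranked at 68.8, 61.6, 71.6 and 58.5 points among shared peaks in the EZH2i, CBPi, FSK and vehicle lists. The remaining vehicle peaks of the gene, with summits 9439 bp before the start and 98976 bp past the internal start, were absent under all 3 treatments and exceeded 2.8% and 25.6% of vehicle peaks.

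**Figure D1:**
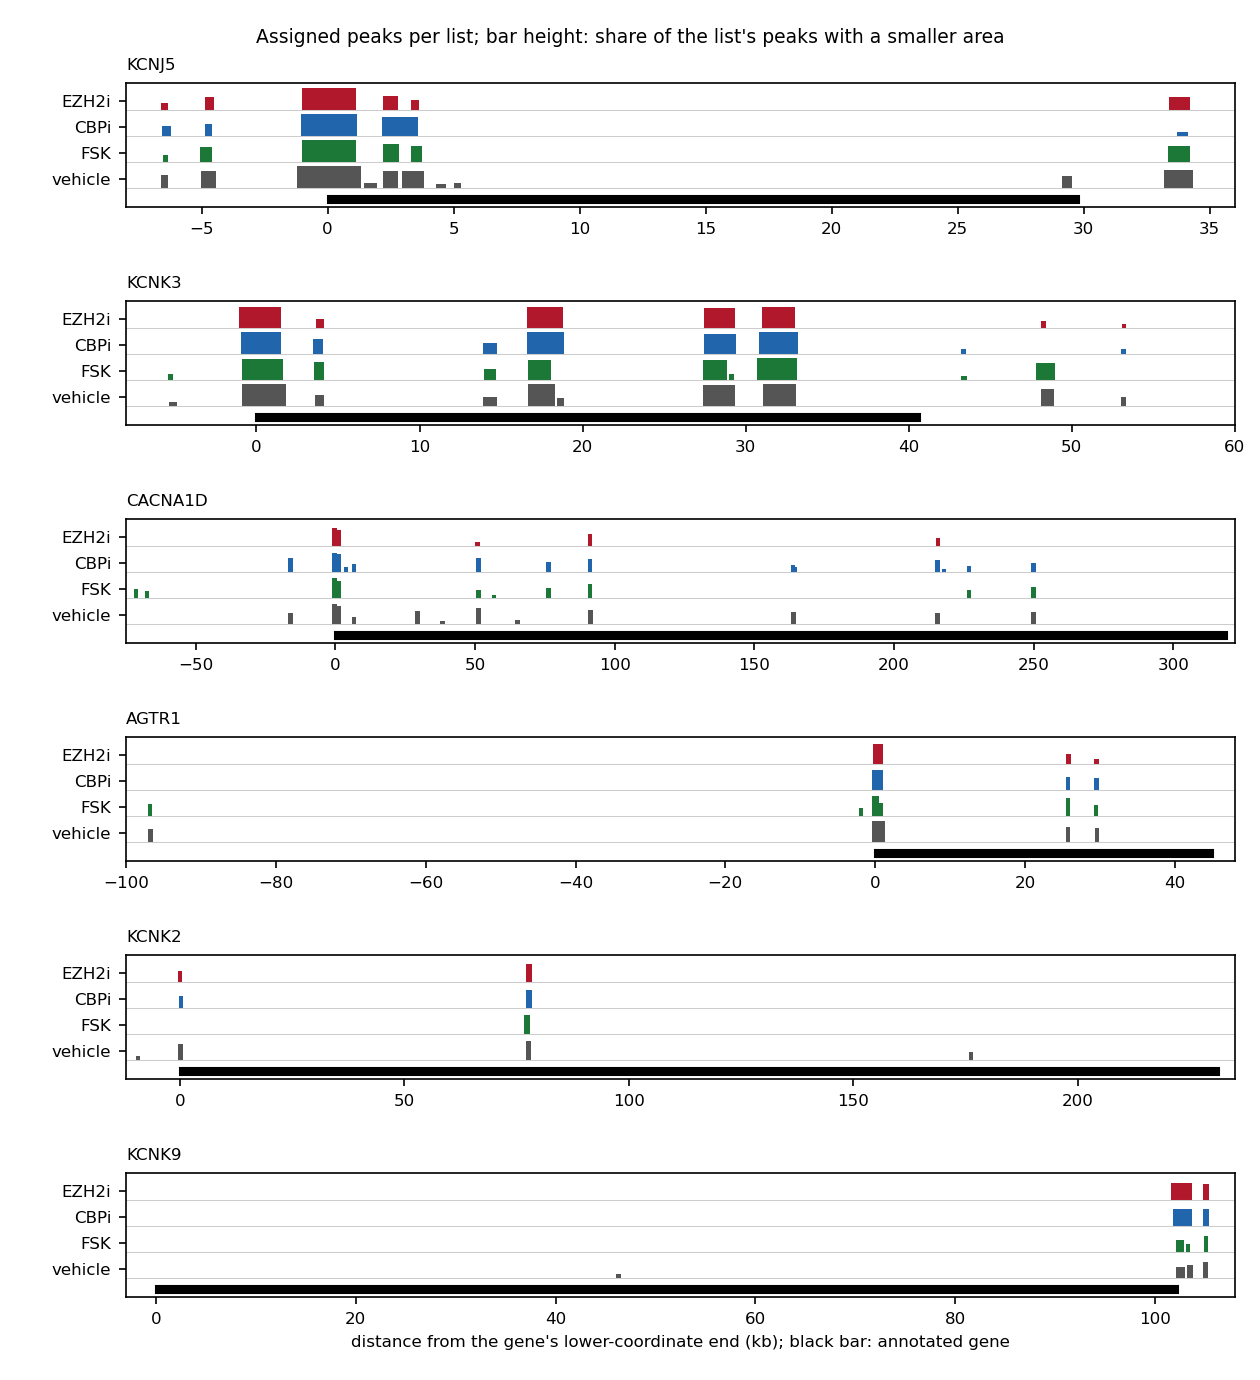
Peaks of 6 of the genes in each list, placed by distance in kb from the gene's lower-coordinate end, with the EZH2i list on top and the vehicle list at the bottom of each panel. Box height is the share of the same list's peaks with a smaller area, boxes too narrow to see are drawn at a minimum width, and the KCNK2 panel shows no FSK box at its left end.

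KCNK9 encodes TASK-3, the second acid-sensitive leak channel of the family in the adrenal cortex, and spans 139600838 to 139703123 on chromosome 8. RefSeq windows gave no start for KCNK9, CACNA1H or AGTR1, so either annotated end of these genes was taken as a possible start. At the upper end of KCNK9 the EZH2i list held 1 peak of 2048 bp and the CBPi list 1 of 1866 bp, whereas the FSK list held peaks of 814 and 440 bp and the vehicle list peaks of 908 and 603 bp. The single peak exceeded 73.3% of peaks in the EZH2i list and 73.0% in the CBPi list. The larger-area peak of each pair exceeded 43.9% in the FSK list and 51.1% in the vehicle list. The region was thus called as 1 broader peak under both inhibitors and as a pair of smaller ones in the FSK and vehicle lists. A neighbouring peak at 139705637 to 139706274 exceeded 67.4%, 68.5%, 67.4% and 65.2% of peaks in the EZH2i, CBPi, FSK and vehicle lists. Among shared peaks it ranked at 57.9 points under EZH2i, 52.8 under CBPi, 49.2 under FSK and 36.4 in vehicle, higher in each treated list than in the vehicle list. A weak intragenic vehicle peak, which exceeded 0.7% of the list, was absent from the others.

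CLCN2, on chromosome 3 from 184346185 to 184361605, encodes the chloride channel ClC-2, whose opening depolarises the cell. Its start lies 105 bp from the RNA polymerase subunit gene POLR2H, and a single broad peak covered the CLCN2 start in every list. It was 2701 bp wide in the EZH2i list, 3023 bp in the CBPi list, 2708 bp in the FSK list and 2879 bp in the vehicle list, and exceeded 98.8%, 99.4%, 98.4% and 99.2% of those lists' peaks in that order. Because the summit was nearer to POLR2H or inside it, this peak was not counted for CLCN2. The 1 peak counted was a weak intragenic one, present in all lists, which exceeded 2.0%, 13.2%, 15.4% and 14.5% of peaks in the EZH2i, CBPi, FSK and vehicle lists.

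CACNA1D, on chromosome 3 from 53494611 to 53813733, encodes an L-type calcium channel and had the most vehicle peaks of the 8 genes. Its start peak was 1044 bp wide in the EZH2i list, 1117 bp in the CBPi list, 1095 bp in the FSK list and 1152 bp in the vehicle list, and exceeded 78.9%, 82.3%, 86.6% and 86.1% of those lists' peaks in that order. The start was kept, but away from it the lists differed. Of 12 vehicle peaks, the EZH2i list kept 5, the CBPi list 9 and the FSK list 5. The Wilson 95% intervals of these shares, which cover counting error only and treat peaks as independent, were 19.3% to 68.0% for EZH2i, 46.8% to 91.1% for CBPi and 19.3% to 68.0% for FSK. They overlapped, and each held the share of all vehicle peaks kept, 62.3%, 69.4% and 69.8% in that order. Vehicle peaks at 53478191, 53501011 and 53658184 were kept in the CBPi list and absent from the EZH2i and FSK lists. They exceeded 37.7%, 20.6% and 45.6% of vehicle peaks. They were the only member peaks with this pattern, 3 of 48 (6.25%), near the 5.78% of all vehicle peaks. The intragenic peak at 53545246 to 53546314 was in all lists and exceeded 2.8% of peaks in the EZH2i list, 55.1% in the CBPi list, 27.0% in the FSK list and 64.2% in the vehicle list. It was 348 bp wide in the EZH2i list, 1036 bp in the CBPi list, 1052 bp in the FSK list and 1011 bp in the vehicle list. CACNA1D also held most peaks without a vehicle counterpart, 0 of 5 in the EZH2i list, 4 of 14 in the CBPi list and 5 of 10 in the FSK list, against 6.98%, 10.7% and 15.9% of all peaks of those lists. These exceeded between 0.1% and 33.0% of peaks in the CBPi list and between 0.2% and 36.5% in the FSK list, so none was in the larger-area 50%.

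CACNA1H, on chromosome 16 from 1153106 to 1221768, encodes a T-type calcium channel that opens at small depolarisations. At its lower end, the EZH2i list held a peak of 732 bp, the CBPi list 967 bp and the vehicle list 558 bp, and the FSK list held none. The peak exceeded 24.0% of peaks in the EZH2i list, 53.6% in the CBPi list and 3.0% in the vehicle list. The vehicle peak absent from the FSK list was therefore among the smallest of its own list. The intragenic peak at 1159820 to 1160994 exceeded 36.1% of peaks in the EZH2i list, 62.8% in the CBPi list, 37.1% in the FSK list and 24.1% in the vehicle list. The peak below the gene at 1137557 to 1138210 exceeded 59.1% in the EZH2i list, 68.1% in the CBPi list, 69.6% in the FSK list and 56.5% in the vehicle list. Among shared peaks both ranked higher in each treated list, the intragenic one by 20.2, 41.6 and 13.9 points and the one below the gene by 23.4, 27.6 and 27.6 points under EZH2i, CBPi and FSK. In the vehicle list they ranked at 3.2 and 24.5 points in that order, so the intragenic one had little room to fall.

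AGTR1, on chromosome 3 from 148697903 to 148743003, encodes the receptor through which angiotensin II acts on the adrenal cortex. The peak over its lower end was 1359 bp wide in the EZH2i list, 1478 bp in the CBPi list and 1674 bp in the vehicle list, and the FSK list held peaks of 889 and 463 bp there. It exceeded 86.4% of peaks in the EZH2i list, 85.8% in the CBPi list, 87.8% in the FSK list (the larger of the pair) and 93.1% in the vehicle list. The intragenic peak at 148723345 to 148723905 exceeded 37.3% of peaks in the EZH2i list, 50.4% in the CBPi list, 77.5% in the FSK list and 59.1% in the vehicle list. Among shared peaks that site ranked at 24.6 points under EZH2i, 29.3 under CBPi, 63.7 under FSK and 27.8 in vehicle, highest in the FSK list. A second intragenic peak, at 148727158 to 148727738, exceeded 9.5% in the EZH2i list, 45.9% in the CBPi list, 39.4% in the FSK list and 57.0% in the vehicle list. Its rank among shared peaks was 4.0 points under EZH2i, 24.7 under CBPi, 19.0 under FSK and 25.1 in vehicle, nearly the same in the CBPi and vehicle lists. Of the 4 vehicle peaks of AGTR1 the FSK list kept all 4, and the EZH2i and CBPi lists kept 3. The exception was a peak 96681 bp below the gene, at 148600891 in the vehicle list, which exceeded 49.6% of vehicle peaks. At the rates of all vehicle peaks in the same 10 bins of area, 3.1, 3.3 and 3.4 of the 4 would be kept under EZH2i, CBPi and FSK, close to these counts. The FSK list alone had a peak at 148695744 to 148696277, which exceeded 22.3% of its peaks.

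A vehicle peak is called lost when no peak of the treated list covers any base of it, and a treated-list peak is called gained when it covers no vehicle peak. Both words describe lists, since a peak can leave a list by falling just under the threshold. The EZH2i list lost 17 of the 48 vehicle peaks of the 8 genes, 35.4%, against 37.7% of all vehicle peaks. The CBPi list lost 13, or 27.1%, against 30.6% of all. The FSK list lost 18, or 37.5%, against 30.2% of all. The kept shares were 64.6% (Wilson 95% interval 50.4 to 76.6) for EZH2i, 72.9% (59.0 to 83.4) for CBPi and 62.5% (48.4 to 74.8) for FSK. Each interval held the share of all vehicle peaks that were kept, so no departure of the 8 genes from the whole list was detectable at this number of peaks. With the members' spread over 10 bins of vehicle area taken into account, 60.2%, 67.5% and 67.8% of their peaks would be kept under EZH2i, CBPi and FSK at the rates of all peaks.

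Gained peaks were 0 of 29 in the EZH2i list (Wilson 95% interval 0.0 to 11.7; 3 counts of 29 would be 10.3%), against 6.98% of all EZH2i peaks. They were 5 of 38 in the CBPi list, 13.2% (Wilson 95% interval 5.8 to 27.3), against 10.7% of all CBPi peaks. They were 7 of 39 in the FSK list, 17.9% (9.0 to 32.7), against 15.9% of all FSK peaks. The CBPi gains were 4 at CACNA1D and 1 at KCNK3, and the FSK gains were 5 at CACNA1D, 1 at KCNK3 and 1 at AGTR1. Present in both the CBPi and FSK lists and in no other were 3 sites, 1 at KCNK3 and 2 at CACNA1D, 5.56% of the 54 sites against 1.65% of all 71935 sites.

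**Figure D2:**
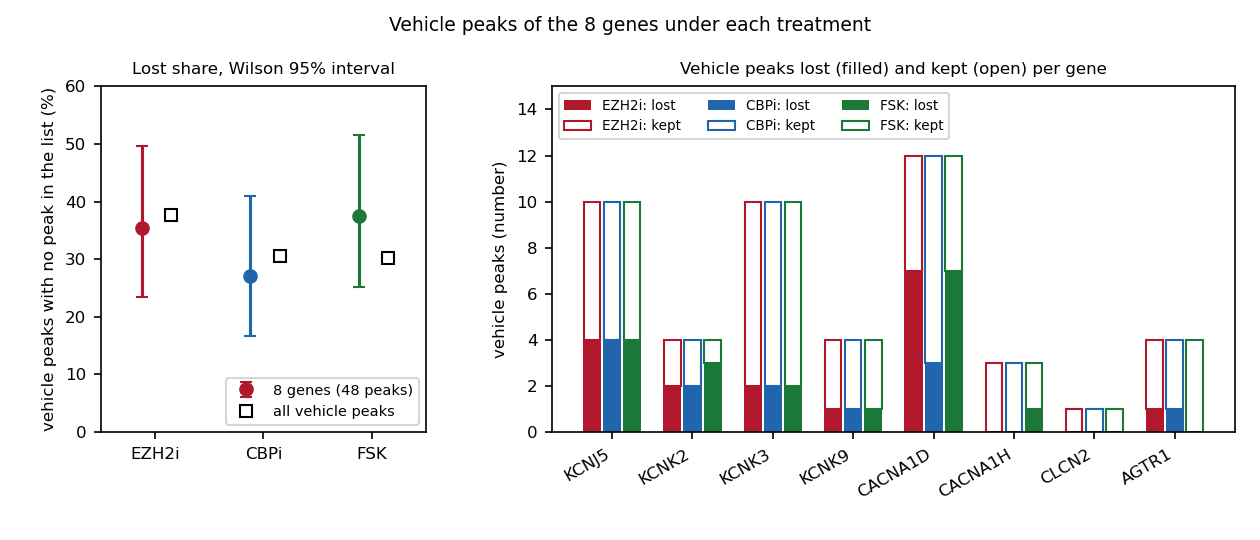
Left, share of vehicle peaks with no peak in each treated list, for the 48 peaks of the 8 genes (circles, bars are Wilson 95% intervals) and for all vehicle peaks (open squares), where each bar spans its square. Right, number of vehicle peaks lost (filled) and kept (open) per gene under EZH2i, CBPi and FSK, with CACNA1D losing 7, 3 and 7 of 12.

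Losses were also counted by peak size and position. Of the 22 member peaks in the larger-area 50% of the vehicle list, the EZH2i list lost 0, the CBPi list 1 (KCNK3) and the FSK list 1 (the upstream KCNK2 start), against 7.62%, 5.45% and 5.91% of all such peaks. Of the 24 that were in the smaller-area 50% and away from starts, the EZH2i list lost 17 (70.8%), the CBPi list 12 (50.0%) and the FSK list 16 (66.7%), against 69.3%, 58.2% and 55.2% of all such peaks. Of the 10 member peaks at a start or possible start, 0, 0 and 2 were lost in the EZH2i, CBPi and FSK lists, against 7.33%, 3.41% and 7.34%. Counted by gene, every member kept a start peak in the EZH2i and CBPi lists, where 3.89% and 1.92% of all genes with one in the vehicle list had lost it. CACNA1H alone had lost it in the FSK list, against 4.24% of all genes with one in the vehicle list.

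Across treatments, 25 of the 48 vehicle peaks were kept in all 3 treated lists (52.1%, against 52.6% of all vehicle peaks) and 10 were lost in all 3 (20.8%, against 17.9%). The 10 were 4 at KCNJ5, 3 at CACNA1D, 2 at KCNK2 and 1 at KCNK9, and exceeded between 0.2% and 47.4% of vehicle peaks. Lost in the FSK list alone were 5 (10.4%, against 4.94%), at KCNK2, KCNK3, CACNA1D and CACNA1H. These comparisons share the vehicle list.

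Peaks kept by a treated list were compared in width, as the summed width of the treated-list peaks on a vehicle peak. Under EZH2i, 21 of 31 were narrower (67.7%, against 73.6% of all kept peaks), with a median log2 width ratio of -0.14, against -0.16 for all. Under CBPi, 11 of 35 were narrower (31.4%, against 56.8%), with a median of 0.12, against -0.04. Under FSK, 20 of 30 were narrower (66.7%, against 65.7%), with a median of -0.14, against -0.11. Under EZH2i and FSK most member peaks were thus narrower than in the vehicle list, as were most of all kept peaks. Under CBPi most member peaks were wider, whereas most of all kept peaks were narrower, a difference that was not tested. Treated-list peaks that span a pair of vehicle peaks, as at the upper end of KCNK9, at KCNJ5 3.01 kb from its start and at KCNK3 17.73 kb from its start, add the whole width to each vehicle peak of the pair. Under CBPi both vehicle peaks of each of these pairs were counted as wider.

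Of the 32083 vehicle peaks present in all lists, 25 were of the 8 genes. Each was ranked in a list by its largest overlapping peak. Under EZH2i, 7 member peaks stood more than 10 points higher and 4 more than 10 points lower than in the vehicle list, with a median shift of -0.61 points, against 15% higher and 16.3% lower over all such peaks. Under CBPi, 8 were higher and 2 lower, with a median of 2.14 points, against 18.2% and 20.2%. Under FSK, 9 were higher and 4 lower, with a median of 1.94 points, against 16.3% and 18.3%. Where 1 treated-list peak covers a pair of vehicle peaks, both are counted. Such pairs among the higher peaks were at KCNK9 under EZH2i and CBPi, and at KCNJ5 under CBPi (23.3 and 19.7 points). Over all peaks the middle 50% of shifts ran from -6.0 to 5.1 points under EZH2i, -7.6 to 6.4 under CBPi and -6.8 to 5.1 under FSK. The largest upward shifts were at the upper end of KCNK9 (56.0 and 46.9 points under EZH2i, 50.0 and 40.9 under CBPi), where 1 treated-list peak covers both vehicle peaks, at the KCNK3 peak 3.83 kb from the start (54.4 points under FSK) and the intragenic CACNA1H peak (41.6 points under CBPi). These peaks ranked low in the vehicle list, at 9.2 and 18.3 (KCNK9), 8.4 (KCNK3) and 3.2 points (CACNA1H), with little room to fall. The largest downward shifts were at the downstream KCNJ5 peak (-55.3 points under CBPi) and at the CACNA1D peak 51.17 kb from the start (-33.7 points under EZH2i).

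**Figure D3:**
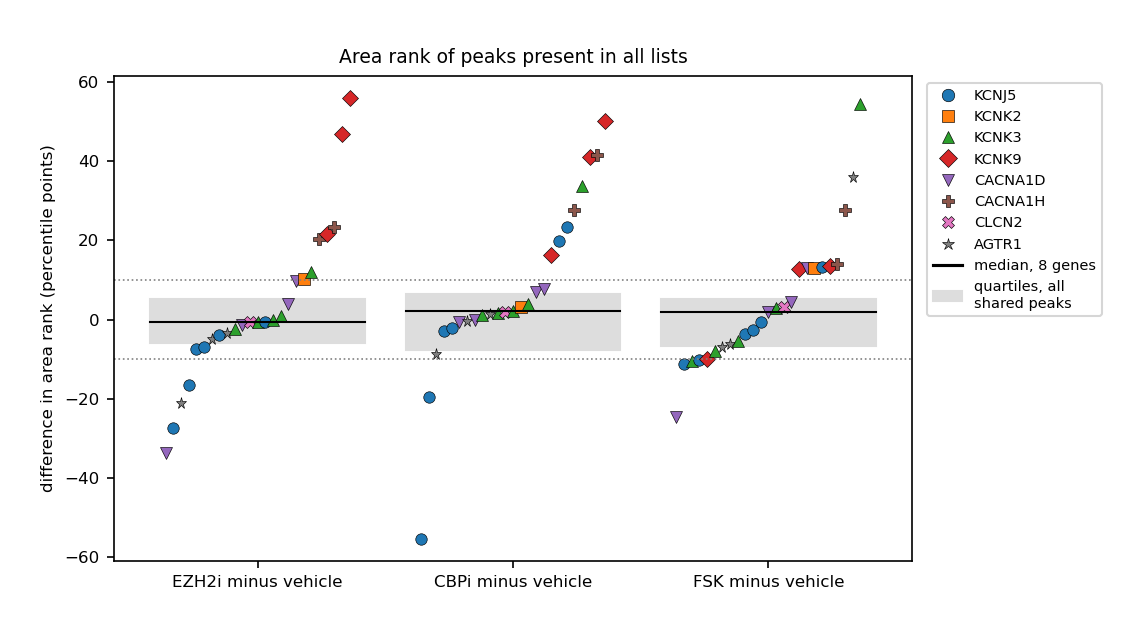
Shift in area rank, treated list minus vehicle list, in points of 100, for the 25 vehicle peaks of the 8 genes present in all lists, by gene and treatment. The shifts ran from -33.7 to 56.0 under EZH2i, from -55.3 to 50.0 under CBPi and from -24.5 to 54.4 under FSK, and 8 of 9 KCNK9 points and 6 of 6 CACNA1H points lie above 0. In the vehicle list the KCNK9 peaks ranked at only 9.2, 18.3 and 36.4 points and the CACNA1H peaks at 3.2 and 24.5.

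Other genes of aldosterone regulation, from angiotensin signalling to steroid synthesis, were a list of 45 genes with 234 vehicle peaks. Of these the EZH2i list lost 94 (40.2%), the CBPi list 68 (29.1%) and the FSK list 80 (34.2%), against 37.7%, 30.6% and 30.2% of all vehicle peaks. Gained were 8 of 146 EZH2i peaks (5.5%), 18 of 180 CBPi peaks (10.0%) and 37 of 194 FSK peaks (19.1%), against 6.98%, 10.7% and 15.9% of all. Start peaks were present in the vehicle list for 38 of the 45 genes. Of the 38 genes, 2, 1 and 1 had none in the EZH2i, CBPi and FSK lists. Over all genes with a start peak in the vehicle list the shares were 3.89%, 1.92% and 4.24%. MC2R, the ACTH receptor, had none in the EZH2i and CBPi lists, and AGT, which encodes angiotensinogen, had none in the EZH2i and FSK lists. CYP21A2, the steroid 21-hydroxylase gene, had one in the FSK list alone, and is uncertain because reads are hard to place between it and a near-identical pseudogene. CYP11B2 and CYP11B1 had no start peak in any list, and their near-identical sequences make reads there hard to place too. Peaks away from a start were counted for both. CYP11B2 had 1 in the EZH2i list, 4 in the CBPi list, 2 in the FSK list and 4 in the vehicle list. CYP11B1 had 1 in the CBPi list, 1 in the vehicle list and 0 in the others. The most losses under EZH2i were at PLCB1, a phospholipase C that acts below AGTR1 (12 of 15 vehicle peaks), ITPR1, an inositol trisphosphate receptor that releases stored calcium (11 of 19), and CADM1, a cell adhesion gene mutated in aldosterone-producing adenomas (9 of 10). The most gains under FSK were at GNAQ, the G protein subunit that couples AGTR1 to phospholipase C (4 of 18 FSK peaks), and CYP11A1, the side-chain cleavage enzyme that starts steroid synthesis (3 of 8).

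Channel relatives of the members, 48 genes of the same potassium, calcium and chloride channel families, had 202 vehicle peaks. The EZH2i list lost 73 (36.1%), the CBPi list 52 (25.7%) and the FSK list 56 (27.7%), against 37.7%, 30.6% and 30.2% of all vehicle peaks. Gained were 18 of 148 EZH2i peaks (12.2%), 20 of 168 CBPi peaks (11.9%) and 31 of 179 FSK peaks (17.3%), against 6.98%, 10.7% and 15.9% of all. CACNA1C, the L-type relative of CACNA1D, had 28 vehicle peaks and lost 13 of them in the EZH2i list, 10 in the CBPi list and 8 in the FSK list. CACNA1E, an R-type calcium channel gene, gained 6 of its 16 FSK peaks. Start peaks were lost at KCNJ16 in the EZH2i and CBPi lists, and gained at KCNJ12 in the EZH2i and FSK lists and at CACNA2D4 in the CBPi list. Of the 28 relatives with a start peak in the vehicle list, 1, 1 and 0 had lost it in the EZH2i, CBPi and FSK lists. The shares over all genes with one in the vehicle list were 3.89%, 1.92% and 4.24%. For gained start peaks no share over all genes is given. KCNJ16 and KCNJ12 encode inwardly rectifying potassium channels, and CACNA2D4 an auxiliary calcium channel subunit. Counted by gene, CACNA1H alone of the 8 was left without a peak at a start or possible start in a treated list. This was in the FSK list, against 4.24% of all genes with such a peak in the vehicle list. The vehicle peak there exceeded only 3.0% of its list. In the FSK list KCNK2 lost the peak at its upstream start and kept the one at its internal start.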

How the data were processed

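ATAC-seq of NCI-H295R cells was available as 4 peak lists, 1 for each group of 2 libraries. The submitters' processing notes name Bowtie2, Genrich, deepTools 2.0 and build hg38. Their roles and settings, the peak threshold, any Tn5 shift of read ends and the way both libraries of a group entered 1 list were not given in the sources used here. The signal deposited by the authors is the area of significance under a peak; the deposited score and the deposited −log10 of the summit p were not used for any result. Depth is unknown, so areas were used only as ranks within a list, and no interval covers depth. All areas were at least 200.

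Genes and starts came from RefSeq tables of GRCh38.p14, and all 127 listed genes matched. A start peak has at least 1 base within 1 kb of a RefSeq start (15813 genes) or, for 4161 genes without one, of either annotated end. Its summit may lie farther away. Counts by gene use the same rule, whichever gene the peak was counted for. Peaks overlapped when they shared at least 1 bp. The computations used Python 3.11.15 with pandas 2.3.3 and numpy 2.4.6, Wilson intervals came from scipy 1.17.1, and figures from matplotlib 3.10.9; the overlap and assignment steps were tested on simulated peaks. With 1 list per group, no test was run.

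The genes and lists were chosen with earlier results of these data known. All peaks of the 8 genes are counted; those described singly are at starts or in the larger-area 50% and missing from a list, and every other peak described singly was chosen after its values were seen. Genes of the other lists were named for a start peak present in only some lists, or for the most losses or gains. CYP11B1 and CYP11B2 were added for their role.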

Additional observations from a re-analysis of the deposited data

How the results depend on the processing

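Of 96 alternative values, covering the overlap required, the length of the lists, the window around the gene, assignment through merged sites, each gene left out in turn and other summaries of width and area, 88 stayed within their interval and 8 moved beyond it. With every list shortened to its 41086 peaks of largest area, the 8 genes kept 81.2% of vehicle peaks under EZH2i, 84.4% under CBPi and 78.1% under FSK, against 82.3%, 82% and 79.3% of all peaks, and gained peaks were 13.8% under EZH2i, against 16.7% of all. Of the 10 peaks lost under all 3 treatments, 2 were within the first 41086 of the vehicle list. With only the larger-area 50% of each list, the FSK list kept 81.8% and gained 5.0%, against 73.2% and 12.2% of all. Without CACNA1D, gained peaks were 1 of 24 (4.2%) under CBPi and 2 of 29 (6.9%) under FSK, against 10.7% and 15.9% of all peaks. The median width ratios and rank shifts had 2 alternatives each and kept their sign under both. None of these left out a gene or shortened the lists. No replicate could be left out and no paired analysis was possible because each group has 1 list and the labels give no replicate numbers. Differences between lists cannot be told apart from differences in depth or in the pooling of libraries.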
